A study of Mus musculus with 10 samples.

Results

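The mitochondrial ribosomal protein genes are the nuclear genes that encode the protein part of the ribosome inside mitochondria. They were taken as every entry of the expression table whose symbol begins with Mrpl or Mrps followed by a digit. This gave 76 of the 23847 loci in the table, 47 with large subunit symbols (Mrpl) and 29 with small subunit symbols (Mrps). Each of the 76 had a value above the table's floor in all 6 libraries, each passed the filter of a mean of at least 1 FPKM (sequenced fragments divided by transcript length and by the library's mapped total), and none was dropped. The libraries are RNA sequencing of whole mouse liver collected 40 h after partial hepatectomy, the removal of a large part of the organ, after which hepatocytes divide and the liver regrows. The WT group (3 libraries) had the genotype Arid1a Fl/Fl, and the KO group (3 libraries) had the genotype Arid1a Fl/Fl with Alb-cre, in which the albumin promoter drives Cre recombinase in hepatocytes. Both groups therefore carry the floxed alleles, and no group without floxed alleles or with Cre alone was analysed here. All mice were a C57/B6 and 129 mix at postnatal day 90. The labels name no individual animals, so the p-values measure the spread between libraries, which may be partly technical. The 4 pre-hepatectomy libraries were not analysed here. The Arid1a protein belongs to the SWI/SNF complex, which moves nucleosomes on DNA.

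Mitochondria keep a small genome that encodes core subunits of the respiratory chain and the RNAs of the mitochondrial ribosome. All proteins of that ribosome are encoded in the nucleus, made on cytosolic ribosomes and imported. Some descend from the bacterial ribosome and keep its numbering, and others are found only in mitochondria. The small subunit reads the messenger RNA at the decoding centre. The large subunit joins amino acids at the peptidyl transferase centre and releases the chain through an exit tunnel that faces the inner membrane. Liver is rich in mitochondria, and cells that divide have to make new mitochondrial ribosomes for both daughters.

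Promoter sequence was available for 67 of the 76 members (RefSeq, GRCm38.p6). It is shown for a pair whose promoters face each other across the subunits and for members whose levels the results return to. Mrpl46, a protein of the central protuberance of the large subunit, and Mrps11, a protein of the platform of the small subunit, lie head to head, and 41 bases separate their starts. The region at chr7:78783060-78783160 (GRCm38.p6, + strand) has these 41 bases in capitals, with the first transcribed bases of Mrpl46 on the left and of Mrps11 on the right.
Mrpl46 and Mrps11: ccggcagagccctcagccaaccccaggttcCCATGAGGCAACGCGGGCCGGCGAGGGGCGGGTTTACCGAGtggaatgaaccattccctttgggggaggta
The next 3 windows run from 120 bases before to 30 bases after the RefSeq start, in the direction of the gene, with the letters CCGGAAG or their reverse complement CTTCCGG in capitals. Mrpl3 (chr9:105053148-105053297, + strand) has 1 match, Mrps12 (chr7:28741792-28741941, - strand) has 1, and Mrpl52 (chr14:54426789-54426938, + strand) has 2.
Mrpl3: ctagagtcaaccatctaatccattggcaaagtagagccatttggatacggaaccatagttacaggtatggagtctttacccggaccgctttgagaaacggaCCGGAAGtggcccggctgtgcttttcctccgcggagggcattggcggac
Mrps12: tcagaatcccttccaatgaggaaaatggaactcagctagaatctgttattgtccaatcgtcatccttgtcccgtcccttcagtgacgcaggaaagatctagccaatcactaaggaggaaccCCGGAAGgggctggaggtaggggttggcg
Mrpl52: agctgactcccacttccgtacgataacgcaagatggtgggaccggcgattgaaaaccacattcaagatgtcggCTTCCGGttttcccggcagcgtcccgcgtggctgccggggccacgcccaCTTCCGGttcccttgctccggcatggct

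CCGGAAG is the core that ETS factors such as GABP, a known regulator of nuclear genes for mitochondrial proteins, can bind. Searched on both strands from 250 bases before to 30 bases after each start, it was found in 22 of 67 members (32.8%), in 20.4% of the 8083 tested genes with a promoter sequence and in 9.48% of all 27025 genes with one. By subunit, it was present in 13 of 41 large and 9 of 26 small subunit members. GCATGCGC, the letters of the NRF1 site, was found in 8 members (11.9%), against 6.22% of tested genes and 2.92% of all genes. These were 7 of 41 large and 1 of 26 small subunit members. AAGATGGCG, the letters of the YY1 site, was found in 4 members (5.97%), against 2.77% and 1.22%, and these were 1 of 41 large and 3 of 26 small subunit members. At least 1 of these 3 motifs was present in 29 of 67 members (43.3%), against 27.0% of tested genes and 12.7% of all genes. CACGTG, the E-box bound by Myc, was present in 5 members (7.46%) against 11.6% of tested genes. TATAAA was present in 5 members (7.46%) against 8.98% of tested genes. No match of CCGGAAG, GCATGCGC, AAGATGGCG or CACGTG overlapped a match of another of them, and TATAAA was not compared. These are counts of letters in a window and not of bound sites. The median log2 difference between KO and WT was 0.24 in the members with CCGGAAG and 0.24 in those without it. With and without the other motifs it was 0.09 and 0.25 for GCATGCGC, 0.32 and 0.23 for AAGATGGCG, 0.11 and 0.25 for CACGTG and 0.16 and 0.24 for TATAAA, each resting on 4 to 8 members with the motif.

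Arid1a itself was measured at 8.68, 8.45 and 8.49 FPKM in WT against at 4.41, 5.57 and 6.15 FPKM in KO. Every KO value was below every WT value, with a log2 difference of -0.59 ± 0.15 (SE; limma adjusted p = 0.207; two-sided exact permutation p = 0.1, the smallest that 20 assignments allow). In whole liver, RNA from cells without Alb-cre can add to the KO value, by an amount that was not tested. Each value covers a whole locus, so single exons of Arid1a were not examined. Fewer cells of a type cannot be told apart from less RNA per cell. The libraries carried the same run label and summed to 409142 to 495209 FPKM. Read totals are not known here, and the steps between low values put relative depth at 0.844 to 1.2 times that of WT replicate 1. Hepatocyte markers were present in every library, with albumin (Alb) at 16226 to 29437 FPKM. The summed level of 9 hepatocyte markers was 44226 to 48547 FPKM in WT and 38520 to 47557 in KO, with Alb as its largest part. Of these 9 markers, Cyp2e1, a cytochrome P450, had 1660, 925 and 2458 FPKM in WT against 613, 306 and 405 in KO (log2 difference -1.88 ± 0.421, limma adjusted p = 0.179), and Serpina1a had 1919, 2168 and 2342 against 1901, 1134 and 1700 (log2 difference -0.47, limma adjusted p = 0.413). In both, every KO value was below every WT value, neither passed the test, and the groups overlapped in the other 7. The part of hepatocyte state in the results on the members was not tested. The summed levels of the other lists overlapped between the groups. They were 103.7 to 146.2 FPKM in WT and 111.4 to 187.3 in KO for Kupffer cells and macrophages, 74.8 to 100.6 and 74.7 to 115.2 for endothelial cells, and 144.5 to 162.8 and 107.4 to 170.4 for stellate cells. They were 12.1 to 21.2 and 12.7 to 29.1 for cholangiocytes, 43.7 to 61.1 and 21.5 to 88.9 for erythroid cells, 10.3 to 32.9 and 13.4 to 23.9 for neutrophils, and 0.5 to 1.4 and 0.4 to 1.0 for lymphocytes. The erythroid sum runs over 9 loci for 7 symbols, because Hba-a1 and Hba-a2 each have more than 1 locus. How reads were divided between those loci is uncertain. Ncr1, which marks natural killer cells, was at 0 in 5 libraries, and no library had a lymphocyte marker above 0.602 FPKM. Of the neutrophil markers, the granule genes Camp and Elane were at 0 in 5 libraries each, Mpo in 2 and Ngp in 1. S100a8 (3.95 to 17.0 FPKM) and S100a9 (1.82 to 15.0 FPKM) were above 0 in every library. Dcn (47.4 to 96.1 FPKM) was the largest part of the stellate sum and Spp1 (8.07 to 25.1 FPKM) of the cholangiocyte sum. Some single markers did separate the groups. Without overlap, 1 of 10 Kupffer cell and macrophage, 1 of 10 endothelial, 1 of 9 stellate and 1 of 5 tested erythroid loci were higher in KO. In the stellate list 1 was lower. None was called, and the smallest limma adjusted p was 0.179, in the stellate list.

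FPKM is scaled to transcript length, and levels are set side by side between members on that scale. Members with shorter annotated transcripts still had higher mean levels (Spearman's rho -0.575). Whether transcript length shapes the ranking was not tested. The highest mean over the 6 libraries was that of Mrpl52, a mitochondria-specific large subunit protein, at 134, 105 and 69.9 FPKM in WT against 83.7, 206.9 and 114 in KO. Mrps21, the bacterial-type bS21m of the small subunit, followed at 121, 69.9 and 82.5 FPKM in WT against 72.1, 142 and 90.5 in KO. Both genes had their highest value in KO replicate 2, and their WT and KO ranges overlapped widely. Mrpl12, the stalk protein that contacts the translation GTPases and also binds the mitochondrial RNA polymerase, had 74.9, 49.5 and 62.9 FPKM in WT against 58.9, 91.1 and 72.2 in KO. Mrpl10, the stalk base that carries Mrpl12, had a WT mean of 15.6 ± 1.03 FPKM (SD, n = 3).

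The lowest mean was that of Mrpl19, a bacterial-type large subunit protein, at 2.33, 2.01 and 2.63 FPKM in WT against 3.07, 2.44 and 2.78 in KO. Next came Mrpl11, a protein of the GTPase-associated centre, at 3.47, 3.25 and 3.92 FPKM in WT against 2.44, 5.85 and 3.88 in KO, and Mrpl41, with means of 3.81 ± 0.774 in WT and 4.11 ± 1.01 in KO. Within the small subunit the lowest was Mrps25, at 4.11, 4.04 and 3.74 FPKM in WT against 3.97, 3.99 and 4.27 in KO. Of these genes Mrps25 varied least, with KO and WT values intermixed. Above it in the small subunit stood Mrps9, a protein of the head (means of 6.64 ± 0.140 in WT and 7.33 ± 0.946 in KO), and Mrps14, also of the head (5.76 ± 1.01 and 7.71 ± 0.440). At the other end, Mrps16 (26.9 ± 4.22 and 32.3 ± 6.05) and Mrps7 (25.1 ± 1.45 and 28.2 ± 4.49) followed Mrps21 in the small subunit, and Mrpl33 (54.0 ± 11.6 and 59.6 ± 3.15) followed Mrpl12 in the large. Transcript levels spanned 46.8-fold between Mrpl19 and Mrpl52. A total of 68 of 76 members lay above the median level of the tested genes, which was 6.92 FPKM, and the median of the members was 15.3 FPKM. The members of the large subunit had a median of 18 FPKM and those of the small subunit 14.3. Mrpl19 and Mrpl41 are among 9 members whose locus overlaps another gene, so how reads were divided there is uncertain. The others are Mrpl24, Mrpl48, Mrpl49, Mrpl53, Mrps6, Mrps25 and Mrps27.

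**Figure D1:**
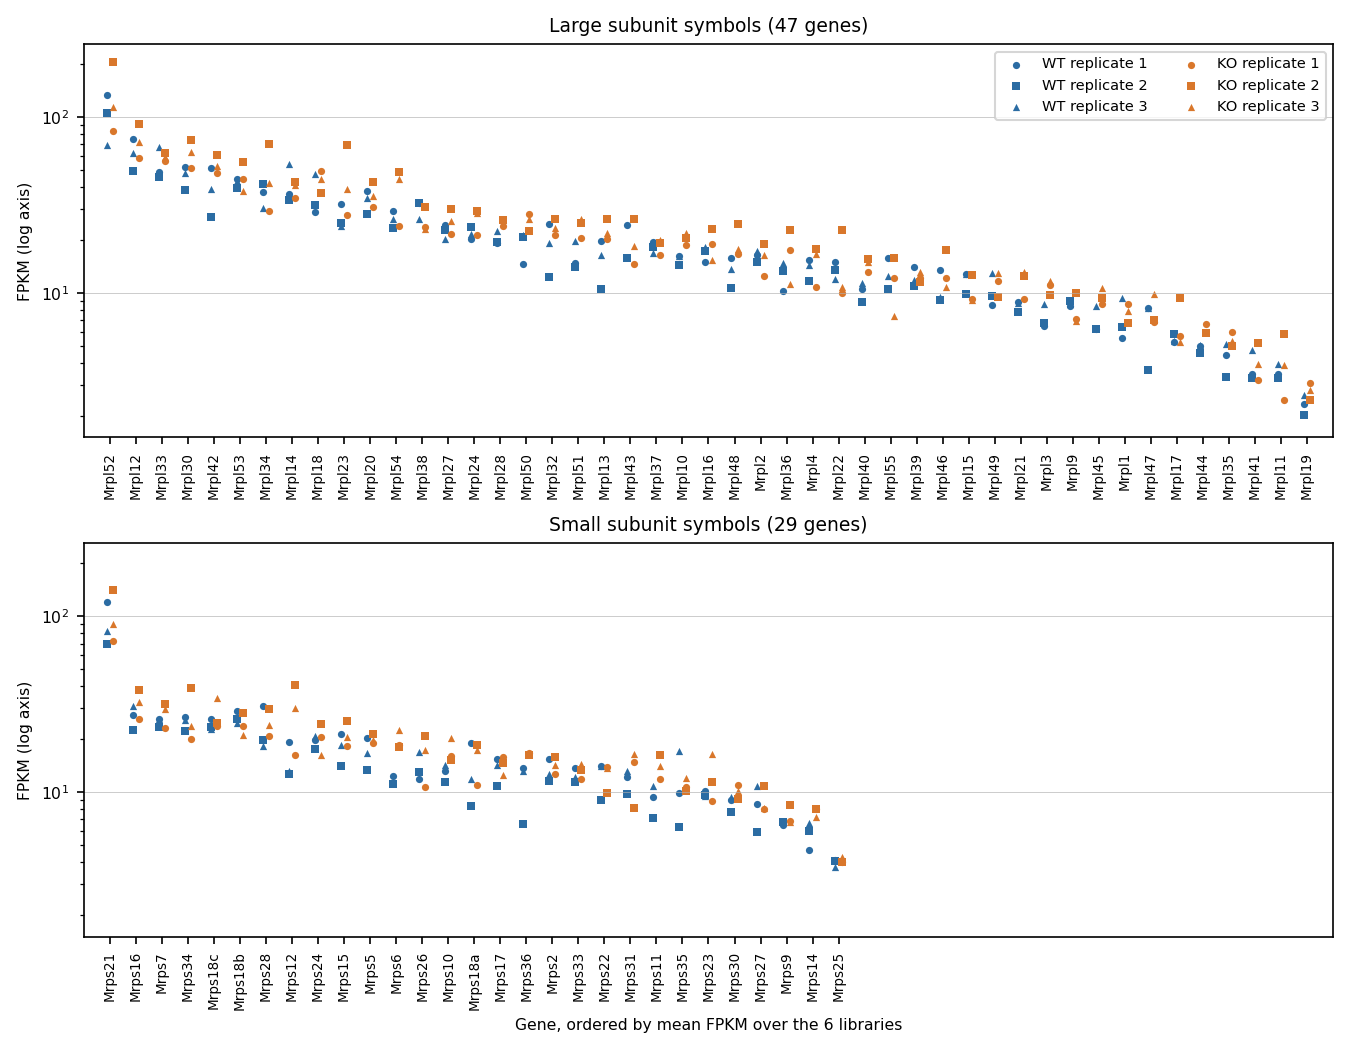
FPKM (log axis) of each large subunit (47) and small subunit (29) gene in the 6 libraries, ordered by mean, with WT and KO replicates as separate points. Levels run from Mrpl19 near 2.54 FPKM to Mrpl52 near 119 FPKM, and the WT and KO points of most genes are intermixed.

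None of the 76 members passed the test between KO and WT (limma, Benjamini-Hochberg adjusted p under 0.05 over all genes). The smallest adjusted p was 0.164, for Mrps6. Of the 10956 genes tested, 13 passed (0.119%), so few calls were made anywhere in this comparison. The 95% intervals of the log2 difference lay within ±1, a factor of 2, for 63 of 76 members, and their bounds ran from -0.84 to 1.66. At an unadjusted p under 0.05, 11 members (14.5%) were higher in KO and 0 were lower. The share among all genes was 11.2% higher and 3.99% lower. All 3 KO values lay above all 3 WT values in 16 members (21.1%), against 16.7% of all genes, and lay below them in 0 members, against 5.44% of all genes. The members' shares on the higher side were thus near those of all genes. That count of 11 was 3 when KO replicate 3 was left out, 2 when WT replicate 2 was left out, 5 when KO replicate 2 was left out and 7 when WT replicate 3 was left out.

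The KO libraries as a whole had higher FPKM for most genes, with a median log2 difference of 0.15 over all tested genes and 0.19 over the members. Rescaling the libraries by median-of-ratios factors brought the all-gene median to 0.02 and that of the members to 0.06. As deposited, 69 members had a higher mean log2 level in KO and 7 a lower one, and after rescaling 46 of 76 were higher. After rescaling, 2 members (2.63%) were higher at an unadjusted p under 0.05, against 5.46% of all genes, and 0 were lower, against 6.61%. Relative to the all-gene median as deposited, 45 of 76 members lay above it.

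**Figure D2:**
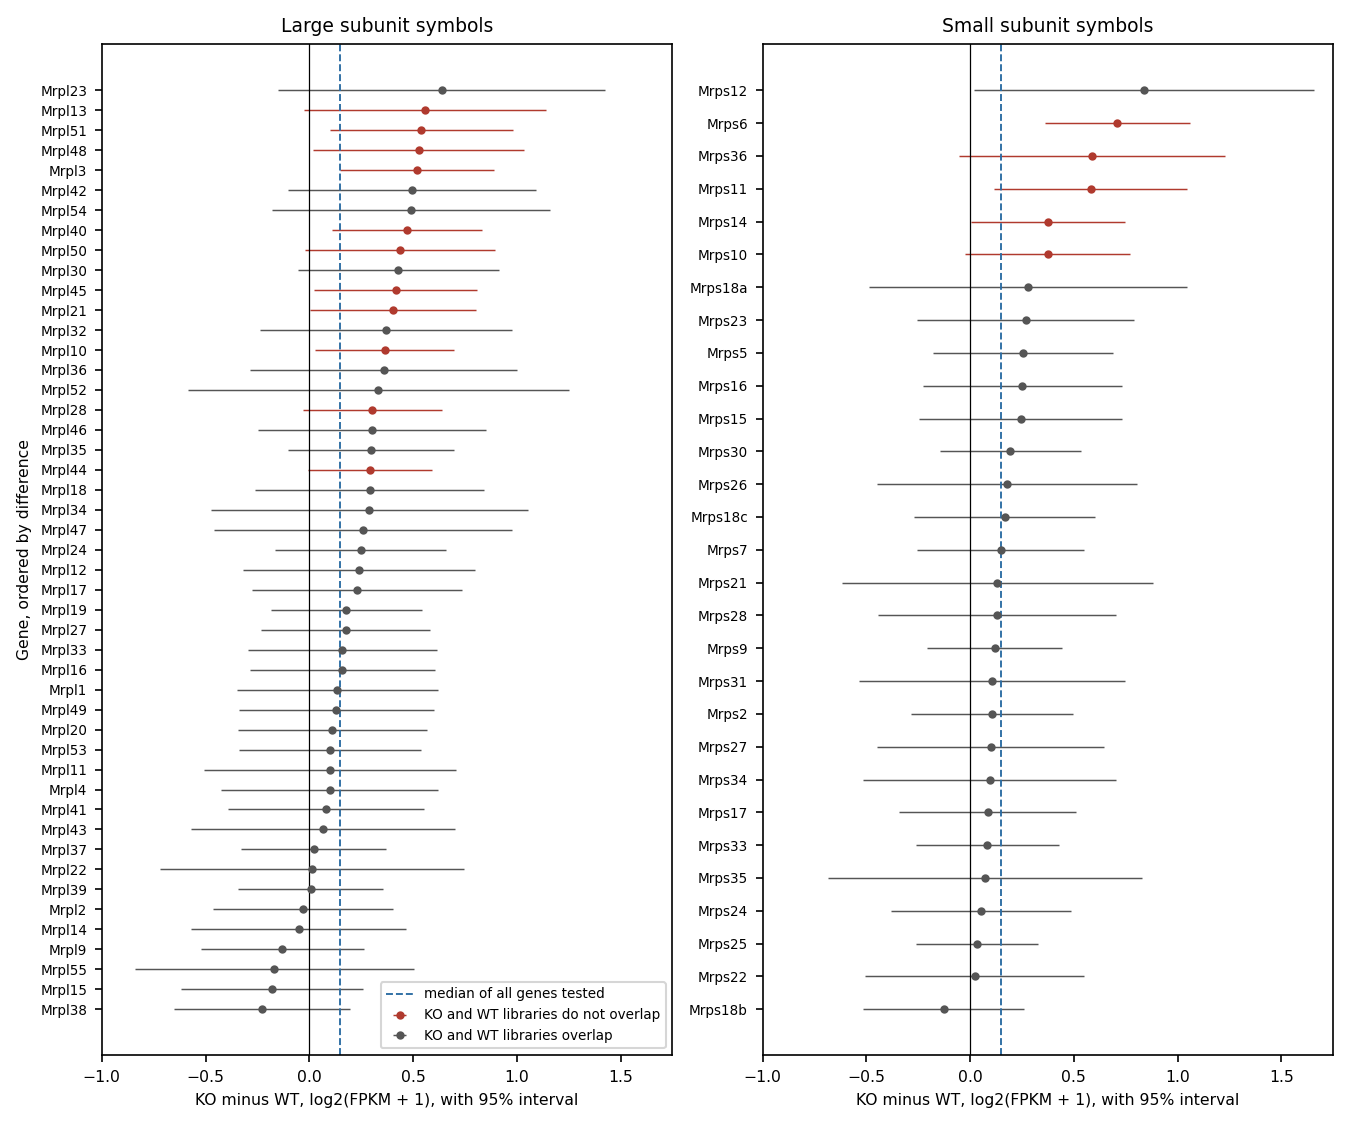
Log2 difference between KO and WT for each member, as points with 95% intervals from limma, large subunit on the left and small subunit on the right, ordered by size, with genes whose groups do not overlap in red and the all-gene median as a dashed line. Values run from -0.23 (Mrpl38) to 0.84 (Mrps12), most intervals cross 0, and no member passed the adjusted test.

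In the small subunit, Mrps6, the mitochondrial bS6 protein, had the smallest p of all members. It had 12.4, 11.1 and 11.3 FPKM in WT against 18.4, 18.1 and 22.4 in KO. The lowest KO library was above the highest WT library. The log2 difference was 0.71 ± 0.147 (SE; limma unadjusted p = 0.00205, limma adjusted p = 0.164) and 0.57 after rescaling. The locus (chr16:92058336-92112227, mm10) also holds Slc5a3, a myo-inositol transporter gene, so reads of the overlapping gene cannot be told apart with certainty. Mrps12, the uS12m protein of the decoding centre, had a log2 difference of 0.84 ± 0.344 (limma adjusted p = 0.323), the largest of the family as deposited. Without KO replicate 2 it was 0.56, below the 0.76 of Mrps6, and without KO replicate 1 it was 1.20. It had 19.2, 12.6 and 13.1 FPKM in WT against 16.2, 40.7 and 30.1 in KO. KO replicate 1 fell inside the range of the WT libraries, and KO replicate 2 was highest.

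Mrps11, of the platform, had 9.39, 7.13 and 10.8 FPKM in WT against 11.9, 16.3 and 14.0 in KO. These ranges did not overlap, and the log2 difference was 0.58 ± 0.196 (limma adjusted p = 0.282). Its head-to-head partner Mrpl46 had 13.5, 9.13 and 9.51 FPKM in WT against 12.2, 17.6 and 10.8 in KO. The Mrpl46 ranges overlapped, with a log2 difference of 0.30 ± 0.232 (limma adjusted p = 0.541), and whether the partners differ was not tested. Mrps14, of the head, had 4.66, 5.97 and 6.65 FPKM in WT against 8.0, 7.94 and 7.21 in KO, with a log2 difference of 0.38 ± 0.156 (limma adjusted p = 0.325).

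In the large subunit, Mrpl3, the uL3m protein beside the peptidyl transferase centre, had 6.47, 6.73 and 8.62 FPKM in WT against 11.0, 9.72 and 11.7 in KO. Its ranges did not overlap and its log2 difference was 0.52 ± 0.157 (limma adjusted p = 0.250). Mrpl3 and Mrps6 are the 2 members that stayed at an unadjusted p under 0.05 after rescaling (0.0385 and 0.00801). Mrpl2, the other protein listed here beside that centre, had a log2 difference of -0.03 ± 0.183. Mrpl27, which reaches towards the centre, had 24.4, 22.9 and 20.3 FPKM in WT against 21.7, 29.9 and 25.5 in KO, with overlapping ranges.

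The central protuberance is a knob of the large subunit that faces the small subunit. Mrpl40 of this feature had 10.5, 8.85 and 11.3 FPKM in WT against 13.1, 15.6 and 15.0 in KO (log2 difference 0.47 ± 0.153, limma adjusted p = 0.274). Mrpl48 had 15.8, 10.6 and 13.6 FPKM in WT against 16.7, 24.7 and 17.8 in KO (0.53 ± 0.213, limma adjusted p = 0.318). Both had no overlap between groups. Mrpl38, a further protein of the same feature, had the most negative difference of the family. It had 32.5, 32.3 and 26.3 FPKM in WT against 23.7, 30.9 and 23.1 in KO, with overlapping ranges and a log2 difference of -0.23 ± 0.179 (limma adjusted p = 0.548). Mrpl55, the bL31m protein, also of the protuberance, had 15.8, 10.5 and 12.5 FPKM in WT against 12.2, 15.7 and 7.37 in KO, and its log2 difference of -0.17 became 0.11 without KO replicate 3. Mrpl18, which also belongs to the protuberance, had 28.7, 31.8 and 47.5 FPKM in WT against 49.1, 36.8 and 44.7 in KO, with overlapping ranges and a log2 difference of 0.29 ± 0.231. With Mrpl46 at 0.30, the 6 members of this feature ran from -0.23 to 0.53, and none passed the test.

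Mrpl45, which links the large subunit to the inner membrane, had 6.20, 6.23 and 8.43 FPKM in WT against 8.65, 9.35 and 10.7 in KO (log2 difference 0.42 ± 0.165). Mrpl10, the stalk base, had 16.2, 14.4 and 16.3 FPKM in WT against 18.7, 20.5 and 21.9 in KO (0.36 ± 0.140). The ranges of both genes did not overlap, with limma adjusted p of 0.314 and 0.310. Mrpl12, which sits on Mrpl10, had a log2 difference of 0.24 ± 0.235, and its groups overlapped. Mrpl51, a mitochondria-specific protein, had 14.9, 14.1 and 19.7 FPKM in WT against 20.4, 25.1 and 26.2 in KO (0.54 ± 0.185, limma adjusted p = 0.287). Along the exit tunnel, Mrpl4 and Mrpl22, which line it, had log2 differences of 0.10 ± 0.220 and 0.01 ± 0.308. At the tunnel's rim Mrpl23 had 32.1, 25 and 23.9 FPKM in WT against 27.9, 69.2 and 38.8 in KO (0.64 ± 0.331, limma adjusted p = 0.389), and Mrpl17, Mrpl24 and Mrpl47 had 0.23, 0.25 and 0.26. For Mrpl23, the KO replicate 1 value was inside the WT range.

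The remaining members without overlap between groups were Mrpl21, Mrpl44, Mrpl13, Mrpl50, Mrps10, Mrps36 and Mrpl28, with log2 differences of 0.29 to 0.59. Of these, Mrpl21 was at an unadjusted limma p of 0.0494. Members with a negative difference were Mrpl38, Mrpl15 (-0.18 ± 0.185), Mrpl55, Mrpl9 (-0.13 ± 0.166), Mrps18b (-0.13 ± 0.164), Mrpl14 (-0.05 ± 0.218) and Mrpl2. For none of these 7 did the interval leave out 0, and only Mrps18b belongs to the small subunit.

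The comparison of the subunits asked whether large and small subunit genes stood apart from each other. The median log2 difference was 0.25 over the 47 large subunit members and 0.15 over the 29 small subunit members, beside 0.15 over all genes. After rescaling these were 0.10 and 0.00, beside 0.02. At an unadjusted p under 0.05 there were 7 large subunit members (14.9%) and 4 small subunit members (13.8%), all higher in KO, and 11 (23.4%) and 5 (17.2%) had no overlap between groups. These shares stand beside 11.2% and 16.7% of all genes. After rescaling, 1 large (2.13%) and 1 small subunit member (3.45%) were higher at an unadjusted p under 0.05, against 5.46% of all genes. The difference between the subunit medians, 0.10, was 0.01 without KO replicate 2, 0.02 without WT replicate 1 and 0.01 without WT replicate 3. Within each library, the median log2 level of the large subunit members exceeded that of the small subunit members, by 0.16, 0.22 and 0.20 in WT against by 0.07, 0.46 and 0.09 in KO. KO replicate 2 stood above every other library and the other KO libraries below every WT library, and these values averaged 0.197 ± 0.0304 over the WT libraries and 0.209 ± 0.218 over the KO libraries (SD, n = 3). The group means were closer together than the spread of the KO libraries. Summed FPKM of the large subunit members was 1.87, 2.13 and 1.98 times that of the small subunit members in WT against 2.03, 2.15 and 1.96 times in KO.

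Some symbols do not match the subunit in which the protein sits. Mrps18a, Mrps18b and Mrps18c are related to bacterial S18. Mrps18c takes the place of S18 in the small subunit, Mrps18b is a further small subunit protein, and Mrps18a is part of the large subunit. Mrps18a had 18.9, 8.28 and 11.8 FPKM in WT against 10.9, 18.4 and 17.4 in KO, with a log2 difference of 0.28 ± 0.323. Mrps18b had 28.9, 26.1 and 24.7 FPKM in WT against 23.8, 28.2 and 21.1 in KO. Mrps18c had 26.2, 23.3 and 22.9 FPKM in WT against 23.9, 24.5 and 34.2 in KO, with a log2 difference of 0.17 ± 0.184. The groups overlapped in all 3 genes. Mrps30, also a large subunit protein despite its symbol, had 9.0, 7.72 and 9.37 FPKM in WT against 11.0, 9.12 and 10.2 in KO, with overlap and a log2 difference of 0.19 ± 0.142. Mrps36 is named as a small subunit protein and is known as an adaptor of the oxoglutarate dehydrogenase complex. It had 13.8, 6.53 and 13.2 FPKM in WT against 16.8, 16.1 and 16.6 in KO, all above WT, with a log2 difference of 0.59 ± 0.270 (limma adjusted p = 0.350). WT replicate 2 had the lowest value of this gene. Counting Mrps18a and Mrps30 with the large subunit and leaving out Mrps36 gave 49 and 26 members, with median log2 differences of 0.25 and 0.13.

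By ancestry, the 46 members with a bacterial counterpart had a median log2 difference of 0.23, and the 29 mitochondria-specific members had 0.13. Within the mitochondria-specific class, the 17 large subunit members had 0.30 and the 12 small subunit members, with Mrps18a and Mrps30 among them by symbol, had 0.10. In those 12, 0 were at an unadjusted p under 0.05 and 0 lacked overlap between groups. In the 17, the counts were 4 (23.5%) and 6 (35.3%). The shares among all genes higher in KO were 11.2% and 16.7%. After rescaling, 0 of the 12 and 0 of the 17 were higher at an unadjusted p under 0.05, against 5.46% of all genes. The bacterial class had 0.23 in its 30 large and 0.21 in its 16 small subunit members.

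Libraries of 1 group also differed from each other across the family. KO replicate 2 had the highest value of the 6 libraries for 38 of 76 members, against 32.4% of all genes, and WT replicate 2 had the lowest for 37 (48.7%), against 23.4%. After each gene's mean was subtracted, the median of the members was -0.02, -0.24 and -0.04 in WT against -0.03, 0.27 and 0.11 in KO. The 2 subunits moved together, at 0.31 for the large and 0.24 for the small subunit in KO replicate 2, against -0.23 and -0.28 in WT replicate 2. Cytosolic ribosomal protein genes (77 tested of 80) had medians of -0.00, -0.45 and -0.25 in WT against -0.16, 0.78 and 0.10 in KO, with the same libraries at the extremes. Nuclear-encoded respiratory chain genes (74 tested) had 0.16, -0.31 and 0.04 in WT against -0.20, 0.12 and 0.20 in KO, so WT replicate 2 was lowest there too, while KO replicate 3 was highest. Mitosis genes (23 tested), which mark dividing cells, had -1.31, -1.45 and -0.43 in WT against 2.03, -1.41 and 2.63 in KO. KO replicate 2 thus had the highest mitochondrial ribosomal protein values and mitosis values close to the WT libraries. The part that proliferation, depth or library preparation has in these shifts was not tested.

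**Figure D3:**
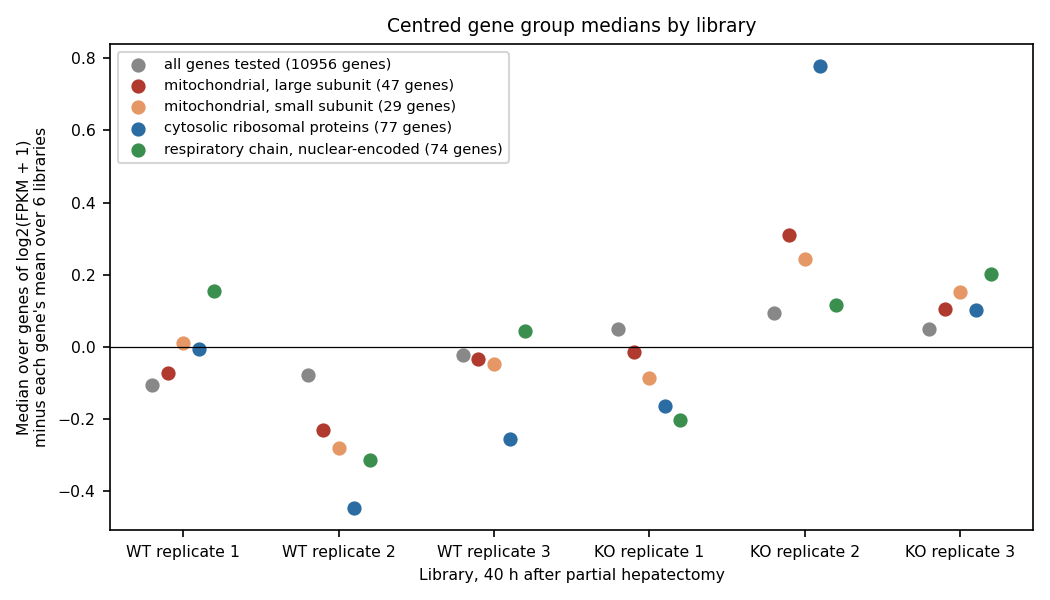
Median over the genes of a group of the log2(FPKM + 1) value relative to the gene's own mean, plotted for each of the 6 libraries, with a colour for each gene group. In KO replicate 2 the large subunit genes reach 0.31, the small subunit genes 0.24 and the cytosolic ribosomal protein genes 0.78, and all 3 groups are lowest in WT replicate 2.

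The excess in KO replicate 2 was on the median larger in members with short transcripts. Members whose annotated coding transcripts have a median of up to 1000 bases (30 genes) were higher in KO replicate 2 than in the mean of the other KO libraries by a median log2 of 0.38, and 27 of the 30 were above 0. Members over 2000 bases (18 genes) had a median of -0.08, and 7 were above 0. Over all tested genes with an annotated length the medians were 0.25 for 867 genes up to 1000 bases and 0.02 for 6514 genes over 2000 bases. Spearman's rho between length and this excess was -0.374 across the 76 members and -0.115 across 9913 genes, as a description of genes measured in the same libraries. Among short members, Mrpl52 and Mrpl22 were each higher in KO replicate 2 by 1.07 on the log2 scale. Mrpl23 was higher by 1.05, Mrpl34 by 0.98, Mrps12 by 0.85, Mrps34 by 0.82 and Mrps21 by 0.80. Short members also lay below 0, with Mrps18c at -0.21 and Mrps6 at -0.16. Members annotated as long lay on both sides of 0, from Mrpl1 at -0.26, Mrpl3 at -0.20 and Mrpl19 at -0.19 to Mrps16 at 0.38, Mrps26 at 0.59 and Mrpl17 at 0.68. Annotated lengths need not be those behind the FPKM values. For Mrps26 (4278 bases, locus chr2:130563757-130565394) and Mrps16 (2572 bases, locus chr14:20391231-20393555) the annotated length exceeds the whole deposited locus. The same holds for Mrpl51 (3427 bases) and Mrpl32 (3013 bases), so the place of these genes among long members is uncertain. Across the members, length had little relation to the difference between KO and WT (rho -0.063) and a larger one to the mean level (rho -0.575). Across the 9913 genes these values were -0.117 and -0.243. Up to 1000 bases, the median log2 difference between KO and WT was 0.16 in the members and 0.27 in all genes. Over 2000 bases it was 0.24 and 0.13. What the length relation comes from was not tested.

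**Figure D4:**
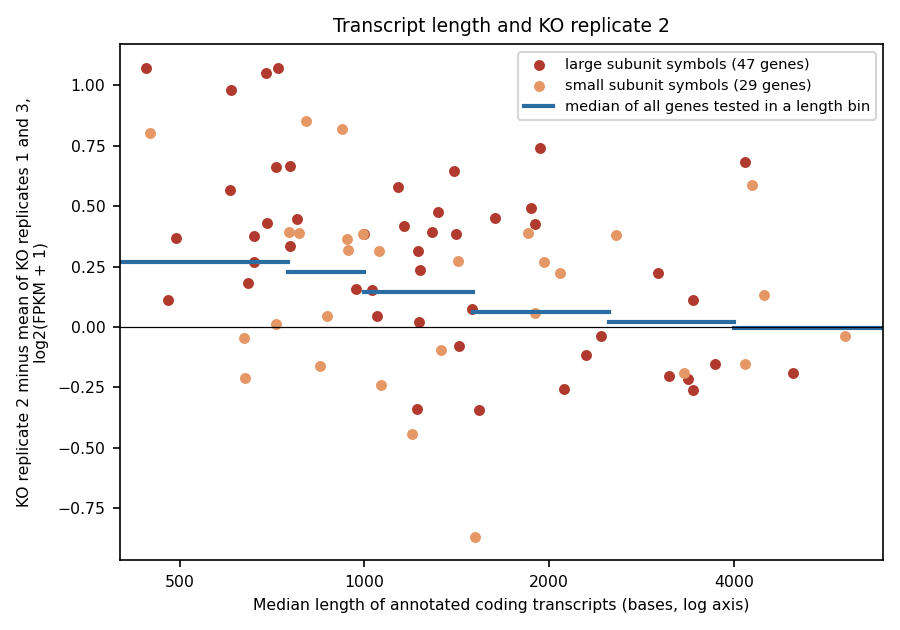
Difference between KO replicate 2 and the mean of KO replicates 1 and 3, log2(FPKM + 1), against median length of annotated coding transcripts (bases, log axis), with 1 point per member by subunit. The highest points are short transcripts such as Mrpl52 (1.07), and those annotated as long lie on both sides of 0, from Mrpl1 (-0.26) to Mrpl17 (0.68). The annotated lengths of Mrps26, Mrps16, Mrpl51 and Mrpl32 exceed their deposited loci.

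Lists of other genes that make or use the mitochondrial ribosome had 0 called members each. Their counts at an unadjusted p under 0.05 stand beside 11.2% higher and 3.99% lower among all genes. After rescaling, those shares were 5.46% and 6.61%, and the counts below became 0 higher and 1 lower for the assembly factors, 0 and 0 for the translation factors, 1 and 0 for the aminoacyl-tRNA synthetases and 2 and 3 for the regulators. The 7 mitoribosomal proteins under other symbols had a median log2 difference of 0.21, with 1 higher and 0 lower at an unadjusted p under 0.05. That gene was Dap3, a GTP-binding small subunit protein, at 3.40, 2.94 and 3.85 FPKM in WT against 4.68, 5.42 and 5.56 in KO, without overlap (log2 difference 0.50 ± 0.144, limma adjusted p = 0.235). The 25 assembly and rRNA modification factors had a median of 0.16, with 2 higher and 0 lower. The first was Malsu1, a factor of large subunit assembly, at 18.6, 16.3 and 18.6 FPKM in WT against 25.2, 23.7 and 22.1 in KO (limma adjusted p = 0.296). The second was Slirp, an RNA-binding protein of mitochondrial messenger RNA, at 34.2, 17.5 and 15.0 FPKM in WT against 27.4, 56.5 and 47.9 in KO, with overlap (limma adjusted p = 0.311). The 12 translation factors had a median of 0.08, with 1 higher and 0 lower. This was the elongation factor Tsfm, at 5.20 ± 0.441 FPKM in WT and 7.11 ± 0.983 in KO (limma adjusted p = 0.311).

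The 20 mitochondrial aminoacyl-tRNA synthetase genes, which charge tRNAs, had a median of 0.12, with 2 higher and 0 lower. Among them was Yars2, the enzyme for tyrosine, at 5.87 ± 0.603 FPKM in WT and 7.90 ± 0.512 in KO (limma adjusted p = 0.295), without overlap between groups. The 12 mitochondrial transcription and genome maintenance genes had a median of 0.27, with 4 higher and 1 lower as deposited but 0 higher and 2 lower after rescaling. The RNA helicase Supv3l1 was at 4.19 ± 0.779 FPKM in WT and 6.28 ± 0.784 in KO (limma adjusted p = 0.284). As deposited, the lower gene was Peo1, the mitochondrial DNA helicase Twinkle, at 6.49 ± 0.390 in WT and 5.05 ± 0.388 in KO (limma adjusted p = 0.325).

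The 16 regulators of mitochondrial gene expression had a median of 0.05, with 2 higher and 1 lower at an unadjusted p under 0.05. Myc, a transcription factor of cell growth, had 1.37, 1.88 and 2.04 FPKM in WT against 2.68, 9.53 and 4.40 in KO (limma adjusted p = 0.282). All KO values were above all WT values, and the highest was in KO replicate 2. Ddit3, a transcription factor of the stress response, had 2.65 ± 0.229 FPKM in WT and 5.14 ± 1.47 in KO (limma adjusted p = 0.221). Mycn had 1.33, 1.88 and 2.02 FPKM in WT against 0.785, 0.108 and 1.02 in KO (limma adjusted p = 0.287), with KO replicate 2 lowest.

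The products of mitochondrial translation join respiratory complexes with nuclear-encoded subunits. The 74 nuclear-encoded respiratory chain genes tested had a median log2 difference of 0.10, with 0 higher and 0 lower at an unadjusted p under 0.05 and a smallest limma adjusted p of 0.349, for Atp5g2. After rescaling the median was -0.05, beside 0.06 for the mitochondrial ribosomal protein genes. Genes of the cytosolic ribosome had a median of 0.44 as deposited and 0.29 after rescaling, and 0 were called. At an unadjusted p under 0.05, 4 were higher (5.19%) and 1 lower as deposited, and 2 higher (2.60%) and 1 lower after rescaling. The shares among all genes were 11.2% higher and 3.99% lower as deposited, and 5.46% and 6.61% after rescaling. KO replicate 2 was the highest library for 74 of these 77 genes (96.1%), against 38 of the 76 mitochondrial ribosomal protein genes. Between the mitochondrial and the cytosolic ribosome, the difference in this response was not tested.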

How the data were processed

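RNA sequencing of liver 40 h after partial hepatectomy was analysed in 3 WT and 3 KO libraries. Per the file headers, the authors deposited 1 FPKM value per locus and library. The headers name no genome build. Positions were taken as mm10, since 21461 of 21835 loci whose symbol is in GENCODE overlapped the GRCm38 gene of that symbol. Per the submitters' processing notes, TopHat, edgeR, mm9 and mm10 were used, without roles. The division of reads between overlapping loci and the strandedness are not stated in the sources used here. FPKM depends on the library total and on the transcript length used, so abundant transcripts move all other values of a library. Entries marked LOWDATA (312 loci) were left out, and the floor of 0.001 was set to 0.

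Loci with a mean of at least 1 FPKM (10956) were compared between KO and WT as log2(FPKM + 1), which understates changes of low genes, in limma 3.58.1 (R 4.3.3; lmFit, eBayes with trend), two-sided, with Benjamini-Hochberg adjustment over all of them. The fit was also run on simulated data with independent noise for each gene. That simulation lacks the shifts that genes share within a library and cannot speak to them. Medians over members are descriptions without a p. Alternatives were median-of-ratios and quantile scaling, a pseudocount of 0.1, no filter, a mean of at least 5 FPKM, a replicate block, leaving out each library, and Mrps18a and Mrps30 counted with the large subunit. Transcript lengths came from GENCODE vM21 and promoters from RefSeq (GRCm38.p6).

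Named members are the 10 smallest p in each direction (7 were lower), the 3 highest and 3 lowest levels of each subunit, Mrps18a, Mrps18b, Mrps18c, Mrps30, Mrpl12 and Mrps12, and from other lists up to 3 genes with the smallest p. Others were named for their role or chosen after their values were seen. The members and lists were chosen with earlier results of these data known. A gene among those that this rule selects is not reported here.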

Additional observations from a re-analysis of the deposited data

How the results depend on the processing

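No member was called under any of the 13 settings tried, and the smallest limma adjusted p was 0.072 (Mrps6, without KO replicate 2). Over all genes, 13 were called as deposited, 6 without a filter on low values, 5 with a mean of at least 5 FPKM, and 0 to 242 when 1 library was left out (0 without WT replicate 1, where 940 genes had an unadjusted limma p under 0.05, and 242 without KO replicate 2). Members at an unadjusted p under 0.05 numbered 11 as deposited, 2 after median-of-ratios rescaling, 2 after quantile normalization, and 2 to 13 when 1 library was left out. The median log2 difference of the large subunit members, 0.247 as deposited, was 0.1 after median-of-ratios rescaling and 0.094 after quantile normalization. The difference between the subunit medians, 0.10 as deposited, was 0.011 to 0.096 when 1 library was left out.

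With a replicate block, 47 genes were called and 6 members were at an unadjusted p under 0.05. Same-numbered WT and KO libraries had correlations of deviations of -0.08, 0.16 and 0.16. For libraries with different numbers these ran from -0.26 to 0.17. The labels name no pairs. These correlations cannot decide whether same-numbered libraries are paired, because deviations within a group of 3 sum to 0.

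Of 368 values of the 31 named members under other settings, 347 kept their direction and 21 changed sign, in 10 members. After median-of-ratios rescaling the log2 difference was -0.021 for Mrpl11, -0.041 for Mrpl41, -0.089 for Mrps25, -0.015 for Mrps9 and -0.019 for Mrps21. After quantile normalization it was -0.06 for Mrpl11, -0.085 for Mrpl41, -0.129 for Mrps25, -0.046 for Mrps9 and -0.001 for Mrps7. With 1 library left out, it ran from -0.39 to 0.107 for Mrpl55, -0.179 to 0.153 for Mrpl14, -0.161 to 0.123 for Mrpl2, -0.147 to 0.349 for Mrpl11, -0.069 to 0.211 for Mrpl41, -0.025 to 0.623 for Mrpl52 and -0.135 to 0.356 for Mrps21. The cause of these changes was not tested. Depth is known only in relative terms, so no counting error is given for single values.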
